A study of Mus musculus with 4 samples.

Results

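The 10 genes described here encode serum amyloid A proteins and other proteins of the acute-phase response: Saa1, Saa2, Saa3, Saa4, Hp, Lcn2, Cp, Cfb, C3 and Orm1. They were chosen by their measured values in the very comparison given below, Hdac6 vector against empty vector, so their differences are a description and no test of them is given. The rule took all non-control array probes that carry 1 of these names, which gave 17 of 56605 probes. Of these, 15 probes of 9 genes were bright enough to enter the fit over all probes, and all 15 were well above background on all 4 arrays, by the scanner software's flag.

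The RNA came from GC-1 cells, a mouse line derived from spermatogonia, transfected with a pCMV plasmid carrying murine Hdac6 with a myc/DDK tag under the CMV promoter (2 arrays) or with the empty vector (2 arrays), and collected after 48 h. Both groups thus went through transfection, and untransfected cells were not analysed here. The labels do not say whether the replicates were separate cultures, so the spread between them may be technical, and 2 arrays a group limit the precision of every value. In such bulk samples a changed share of cells of a type and a changed amount of RNA per cell cannot be told apart.

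The acute-phase response is the change in secreted proteins that follows infection or injury. Cytokines such as interleukin 6, interleukin 1 and tumour necrosis factor act on their receptors and, through STAT3, C/EBP and NF-kB factors, raise the transcription of these genes. The response is best known from liver, but several of its genes are also expressed by epithelial cells, fibroblasts and macrophages.

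Serum amyloid A proteins are small apolipoproteins of high-density lipoprotein. The 60-base probes that read the Saa1 and Saa3 transcripts are shown because these genes had the largest differences of the set. The Saa1 probe lies at chr7:53996070-53996129 and the Saa3 probe at chr7:53967559-53967618 (mm9, minus strand, as the files give them). Both are in lower case, 5′ to 3′, with no part marked.
Saa1 probe: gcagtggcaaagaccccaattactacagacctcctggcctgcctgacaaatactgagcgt
Saa3 probe: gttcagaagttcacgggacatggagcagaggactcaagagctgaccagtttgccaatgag

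The promoters of Saa1, Saa2 and Saa3 are shown because Saa1 and Saa2 have near-identical windows but unlike differences between the groups. The log2 differences, Hdac6 vector minus empty vector, were 2.35 for Saa1, 2.53 for Saa3 and 0.92 for Saa2, whose probe was dim. Whether the promoter letters bear on these differences was not tested. The 250 bases before each RefSeq start site (GRCm38.p6) are given 5′ to 3′ on the gene's strand, at chr7:46742981-46743230 (minus strand) for Saa1, at chr7:46751583-46751832 (plus strand) for Saa2 and at chr7:46715677-46715926 (minus strand) for Saa3. Capitals mark matches, on either strand, to an NF-kB motif (GGNNNTTTCC), a C/EBP motif (TTNNGNAA) or a STAT motif (TTCNNNGAA).
Saa1 promoter: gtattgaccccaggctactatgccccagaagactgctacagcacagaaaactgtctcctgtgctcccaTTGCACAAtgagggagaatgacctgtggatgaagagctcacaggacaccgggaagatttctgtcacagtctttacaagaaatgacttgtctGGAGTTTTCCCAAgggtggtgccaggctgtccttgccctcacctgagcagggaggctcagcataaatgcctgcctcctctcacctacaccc
Saa2 promoter: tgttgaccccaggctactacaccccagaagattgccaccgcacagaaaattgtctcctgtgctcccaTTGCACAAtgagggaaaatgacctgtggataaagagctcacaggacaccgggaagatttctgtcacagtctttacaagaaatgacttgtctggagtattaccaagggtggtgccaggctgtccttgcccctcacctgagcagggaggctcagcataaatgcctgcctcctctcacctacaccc
Saa3 promoter: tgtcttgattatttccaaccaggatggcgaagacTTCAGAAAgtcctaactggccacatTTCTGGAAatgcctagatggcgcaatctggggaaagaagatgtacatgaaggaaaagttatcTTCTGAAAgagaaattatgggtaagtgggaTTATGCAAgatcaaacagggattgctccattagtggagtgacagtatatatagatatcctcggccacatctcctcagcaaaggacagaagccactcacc

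In the aligned windows Saa1 and Saa2 shared 238 bases, or 94.8%, with 11 substitutions, whereas Saa1 and Saa3 shared 52.2%. The Saa1 window held an NF-kB match, GGAGTTTTCC, 91 to 82 bases before the start site, which overlaps a C/EBP match. The same stretch of Saa2 reads GGAGTATTAC, and it differs by 2 of the 11 substitutions, T165A and C168A (Saa1 base, position from 1 at the 5′ end of the Saa1 window, Saa2 base). With these letters the Saa2 window held no NF-kB match, and neither did that of Saa3. The Saa3 window held 4 C/EBP matches, against 2 in Saa1 and 1 in Saa2. RefSeq windows were matched for 7 of the 10 genes (Saa1, Saa2, Saa3, Saa4, Lcn2, Cp and C3). All 7 held a C/EBP match, 1 of them an NF-kB match and 0 a STAT match. Among 32851 such windows of mouse genes, 36.8% held the C/EBP, 4.63% the NF-kB and 7.02% the STAT motif. A match is a string of letters and not a site shown to be bound.

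Before the members' values, the arrays themselves are set out. Of the spots that are not controls, 64.3% and 61.0% were well above background on Hdac6 vector arrays 1 and 2, and 66.4% and 65.1% on empty vector arrays 1 and 2. Hdac6 vector 1 and empty vector 2 were the closest pair, with 0.601% of 32602 probes at least 2-fold apart, against 3.83% to 6.85% for the other pairs. The Hdac6 probe itself read 2.62 and 3.24 with the Hdac6 vector and 3.31 and 2.83 with the empty vector, as log2 processed signal minus the array's 75th percentile. These groups overlap, so that probe does not bear out the labels, and whether it can read the plasmid's copy was not tested. Below, each group stands for the arrays so labelled. All levels below are on this scale, and levels of different probes are not compared. Differences are Hdac6 vector minus empty vector on the same log2 scale.

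All 15 tested acute-phase probes read higher with the Hdac6 vector, by log2 differences of 0.51 to 2.53, and in each the lower Hdac6 vector array lay above the higher empty vector array. Over all 35215 tested probes the groups lay apart in this direction in 13.1%, and in either direction in 25.1%. A gap between the groups wider than the range within either group was seen for 12 of the 15, where it held for 2.8% of all tested probes. At least 2-fold higher were 8 of the 15, and 0.554% of all. The median over the 9 measured genes, each by its brightest tested probe, was a log2 difference of 1.23, against 0.02 over all tested probes. The all-probe fit with limma called 4 probes at an adjusted p under 0.05 (0.0114%), all higher, among them 2 acute-phase probes, those of Saa1 and Saa3. It called 0 probes without Hdac6 vector 2 and 0 with median scaling. As the genes were picked on this comparison, these counts describe them and are no evidence beyond the choice.

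**Figure D1:**
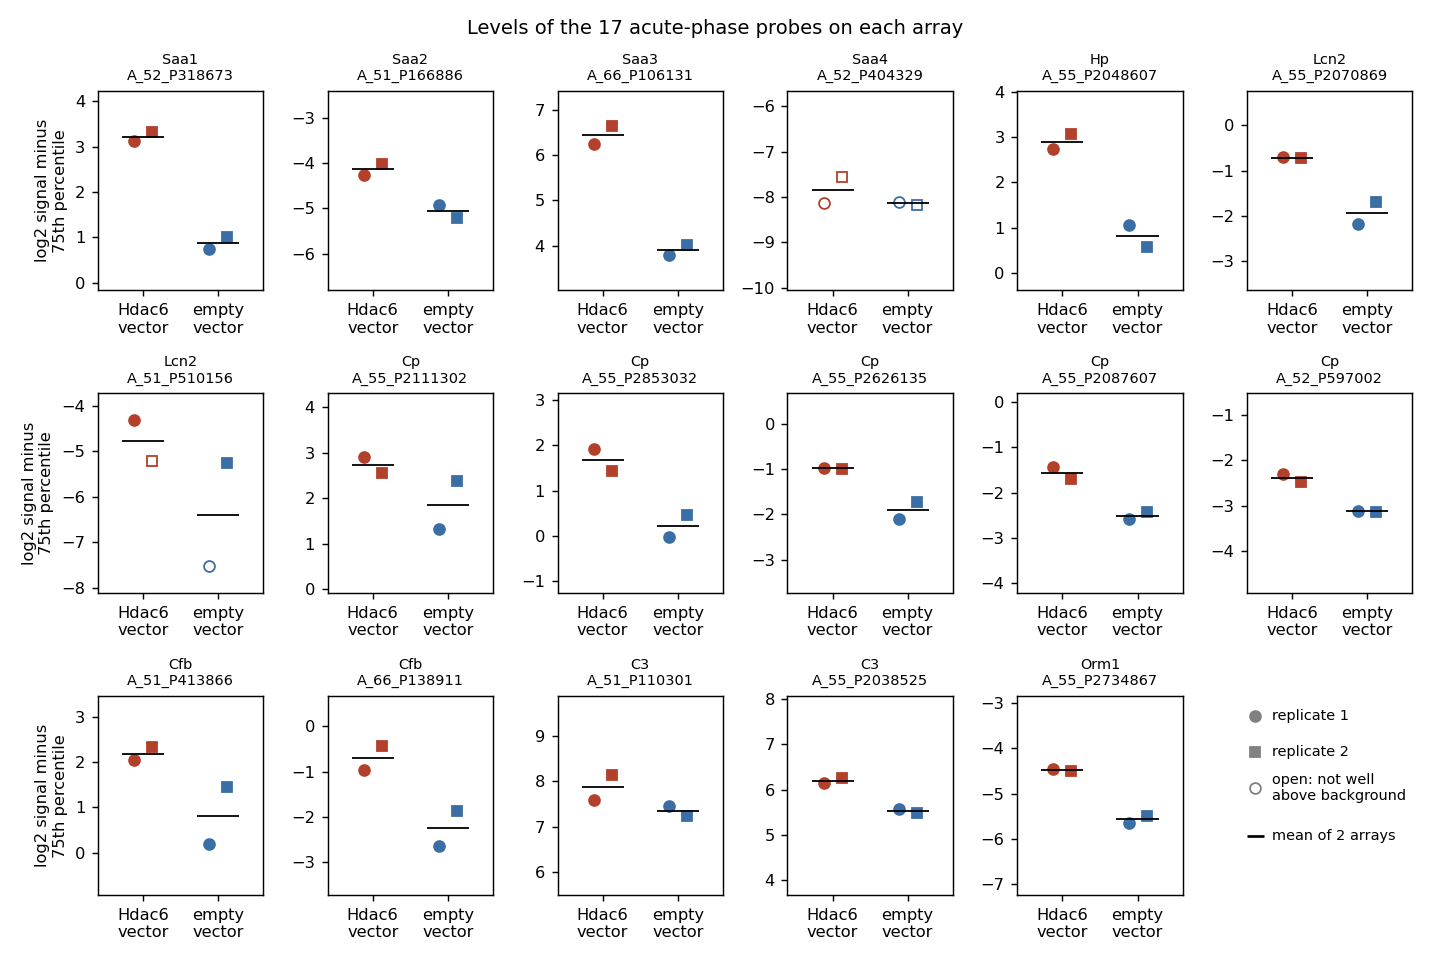
Level of each of the 17 acute-phase probes on each array, as log2 processed signal minus the array's 75th percentile, with the Hdac6 vector left of the empty vector in each panel (every panel spans the same number of log2 units). Circles are replicate 1 and squares replicate 2, open symbols were not well above background, and lines are means of 2 arrays; the groups lie apart in all 15 tested probes, while Saa4 was dim on all 4 arrays.

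Among the serum amyloid genes, Saa3 and Saa1 stood far apart between the groups, Saa2 less so, and Saa4 was not measurable. Saa3, in mice the member made mainly outside the liver, in macrophages and other tissue cells, read 6.25 and 6.63 with the Hdac6 vector, against 3.79 and 4.02 with the empty vector. That is a mean of 6.44 ± 0.27 against 3.91 ± 0.17 (SD, n = 2 each), or 5.78-fold. The gap between the nearest arrays of the groups, 2.22, was several times the widest distance between replicates, 0.39.

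Saa1 encodes a major circulating serum amyloid A of the liver. Its probe read 3.13 and 3.32 with the Hdac6 vector, against 0.74 and 1.01 with the empty vector. The means were 3.22 ± 0.14 and 0.87 ± 0.19 (SD, n = 2 each), a difference of 5.10-fold. Both Hdac6 vector arrays were high and both empty vector arrays low, with a gap of 2.12.

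Saa2, the other major liver form, was read by a dim probe (chr7:54009535-54009594, mm9, plus strand). It gave -4.26 and -4.02 with the Hdac6 vector, against -4.92 and -5.20 with the empty vector, or 1.90-fold. The groups did not overlap, and their gap was 0.66, smaller than for Saa1. With background correction by normexp, which adds an offset, the log2 difference was 0.41 in place of 0.92. Transcripts of near-identical genes can bind each other's probes, so the split of signal between Saa1 and Saa2 is uncertain. The annotation in the files ties the Saa1 probe to Saa1 transcripts and the Saa2 probe to Saa2 transcripts.

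Saa4, the constitutive serum amyloid A of plasma lipoprotein, gave -8.14 and -7.55 with the Hdac6 vector, against -8.10 and -8.17 with the empty vector. It was not well above background on any of the 4 arrays, so no fold is given.

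The neighbourhood of the serum amyloid genes was measured by other probes, which the choice of genes did not use. The 4 Saa probes span 42.0 kb of chromosome 7 (mm9). Within 200 kb of them lay 26 other probes, 14 of them tested, and limma called 0 (0 at an unadjusted p under 0.05). Their log2 differences ran from -0.28 to 0.42, with a median of 0.10. Saal1, whose product is named for its likeness to serum amyloid A, lay 19.2 kb from the nearest Saa probe and read 0.47 and 0.50 with the Hdac6 vector, against 0.34 and 0.26 with the empty vector (limma adjusted p = 1.00). The brighter probe of Hps5, a gene of lysosome-related organelle biogenesis next to Saa2, was at 1.92 and 2.51 with the Hdac6 vector and at 2.59 and 1.99 with the empty vector, so its groups overlap. The log2 differences of the other tested probes in the window were 0.42 for Sergef, 0.10 for the dimmer tested Hps5 probe, 0.02, 0.02 and 0.15 for Gtf2h1, a subunit of transcription factor TFIIH, 0.26 and 0.17 for the lactate dehydrogenase gene Ldha, 0.10 and 0.37 for Tsg101, -0.21 and 0.08 for Uevld and -0.28 for the unnamed transcript AK083645. Probes of Tph1, Ldhc and Gm31882 were too dim to test. Around all 10 genes 168 other probes lay within 200 kb, 122 of them tested, and limma called 0 there as well (2 at an unadjusted p under 0.05), where 0.0114% of all tested probes were called and 1.84% were under that unadjusted p. Their median log2 difference was 0.01.

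Among the iron and haem binders, Hp had the largest difference, below those of Saa3 and Saa1 and above that of Saa2. It encodes haptoglobin, which binds free haemoglobin. Its probe (chr8:112099045-112099104, mm9, minus strand) read 2.73 and 3.06 with the Hdac6 vector, against 1.05 and 0.57 with the empty vector. The means were 2.89 ± 0.24 and 0.81 ± 0.34 (SD, n = 2 each), a difference of 4.24-fold. The gap of 1.67 was wider than the 0.48 between the empty vector arrays. This probe holds an AATAAA polyadenylation signal at base 52, so it reads the end of the transcript.

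Lcn2 encodes lipocalin 2, which binds bacterial siderophores and so withholds iron. Its brighter probe (chr2:32240199-32240258, mm9, minus strand) gave -0.70 and -0.73 with the Hdac6 vector, against -2.19 and -1.70 with the empty vector, or 2.34-fold. The Hdac6 vector arrays differed by 0.03 and the empty vector arrays by 0.49. The dimmer Lcn2 probe spans 245 bases of the genome with its 60, and so crosses an intron. It gave -4.31 and -5.21 with the Hdac6 vector and -7.53 and -5.26 with the empty vector. It was well above background on only 1 array of each group, Hdac6 vector 1 and empty vector 2, and was not tested.

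Cp encodes ceruloplasmin, the copper-carrying ferroxidase that oxidises iron as it leaves cells, in a secreted form and a membrane-anchored form. All 5 of its probes, spread along chromosome 3, read higher with the Hdac6 vector, by 1.66-fold to 2.75-fold, with no overlap between the groups. The brightest (chr3:19889071-19889130, mm9, plus strand) gave 2.90 and 2.54 with the Hdac6 vector, against 1.32 and 2.38 with the empty vector, or 1.83-fold. Here the groups lay only 0.16 apart and the empty vector arrays 1.06 apart, so the value turns on them: the log2 difference was 0.87, but 0.34 when empty vector 1 was left out and 1.41 when empty vector 2 was. In the other 4 Cp probes the empty vector arrays lay closer together, at most 0.48 apart. The largest difference, 2.75-fold, was that of the probe at chr3:19869171-19869230, which the files tie to an Ensembl transcript. Unlike the other 4 Cp probes, it was matched to no RefSeq gene. It read 1.92 and 1.43 with the Hdac6 vector and -0.03 and 0.45 with the empty vector. The remaining 3, at 1.91-fold, 1.93-fold and 1.66-fold, had gaps of 0.74, 0.75 and 0.64 between the groups. The last of these, at chr3:19909387-19909446, had a log2 difference of 0.48 with normexp in place of 0.73.

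C3 and Cfb belong to the alternative pathway of complement. Cfb encodes factor B, the protease subunit of its C3 convertase. Its brighter probe crosses an intron (chr17:34993502-34993858, mm9, minus strand) and read 2.04 and 2.33 with the Hdac6 vector, against 0.19 and 1.44 with the empty vector, or 2.58-fold. The empty vector arrays lay 1.26 apart, more than the gap of 0.59 between the groups. Without empty vector 1 the log2 difference was 0.74 in place of 1.37. The dimmer Cfb probe gave -0.97 and -0.43 with the Hdac6 vector, against -2.63 and -1.86 with the empty vector, or 2.92-fold, with a gap of 0.89. In both probes empty vector 1 was the lowest array.

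C3 encodes the central complement component, whose cleavage all pathways share, and its differences were the smallest of the set. The probe at chr17:57343678-57343737 (mm9, minus strand) gave 6.14 and 6.26 with the Hdac6 vector, against 5.58 and 5.48 with the empty vector, or 1.59-fold. The replicates there lay 0.12 and 0.10 apart. The brighter C3 probe (chr17:57343416-57343475) read 7.60 and 8.13 with the Hdac6 vector, against 7.46 and 7.24 with the empty vector, or 1.43-fold. Its groups were 0.13 apart, less than the 0.53 between the Hdac6 vector arrays, and its log2 difference of 0.51 became 0.25 without Hdac6 vector 2 and 0.78 without Hdac6 vector 1. Its processed signals were 157943 and 126825 with the Hdac6 vector and 117612 and 104662 with the empty vector, and no spot was marked as saturated.

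Orm1 encodes orosomucoid, an acid glycoprotein that carries drugs and other ligands in plasma. Its probe is shown because the files tie it to transcripts of both Orm1 and Orm2, so the signal cannot be given to either gene alone. It spans 1644 bases at chr4:63007395-63009038 (mm9, plus strand) and so crosses introns.
Orm1 probe: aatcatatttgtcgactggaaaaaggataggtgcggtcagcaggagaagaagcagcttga

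That probe gave -4.45 and -4.50 with the Hdac6 vector, against -5.64 and -5.49 with the empty vector, or 2.12-fold. The replicates lay 0.05 and 0.15 apart, and the gap between the groups was 0.99. The signal was dim, and with normexp the log2 difference was 0.41 in place of 1.09. The separate Orm2 probe, which is no member, read -4.98 and -4.73 with the Hdac6 vector and -5.72 and -5.63 with the empty vector (1.77-fold, limma adjusted p = 1.00).

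**Figure D2:**
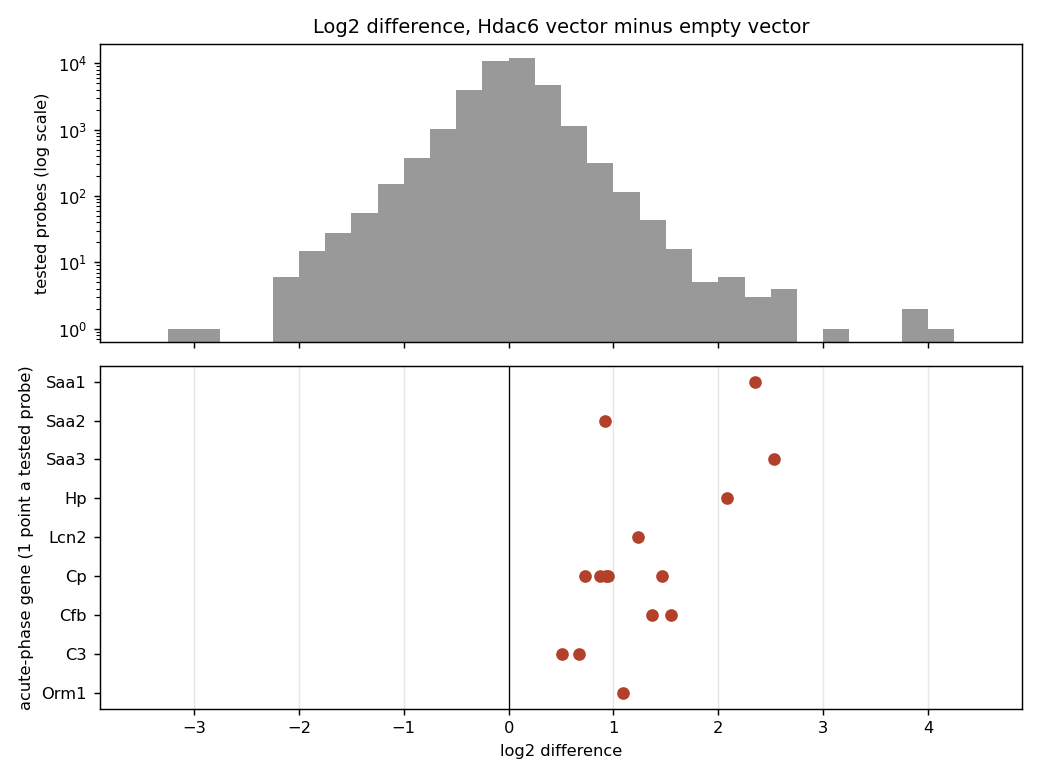
Upper panel, number of tested probes (log scale) by log2 difference, Hdac6 vector minus empty vector; lower panel, the same difference for each of the 15 tested acute-phase probes, 1 point a probe, by gene. All 15 points lie above 0, from 0.51 for the brighter C3 probe to 2.53 for Saa3, and the 5 Cp probes run from 0.73 to 1.46.

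The genes also differed in how the replicates lay. Within the empty vector group, 10 of the 15 tested acute-phase probes were higher on array 2 than on array 1, against 48.2% of all tested probes. Within the Hdac6 vector group, 8 of the 15 were higher on array 2, against 63.0% of all. Saa2, Hp and both C3 probes were the exceptions with a higher value on empty vector 1, together with the dimmest Cp probe, where the empty vector arrays differed by 0.03.

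The authors' deposited table gives 1 value a gene. In the authors' deposited table the log2 differences were 2.45 for Saa3, 2.27 for Saa1, 2.00 for Hp, 1.38 for Cfb, 1.14 for Lcn2, 1.01 for Orm1, 0.91 for Cp, 0.85 for Saa2 and 0.51 for C3. For these 9 genes the table's value on each array equalled, within 0.01 and after a constant per array, the mean of those probes that were well above background there. For Lcn2 the authors' deposited table thus takes 2 probes on Hdac6 vector 1 and empty vector 2 and 1 probe on Hdac6 vector 2 and empty vector 1. Its Lcn2 entries were -2.23 and -0.62 with the Hdac6 vector and -1.92 and -3.22 with the empty vector, so the groups overlap in the authors' deposited table, while those of the brighter probe do not.

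Other acute-phase genes, listed for this comparison with earlier results known, did not rise together. Of 32 listed positive acute-phase genes 19 were tested, 11 read higher and 8 lower, the median log2 difference was 0.01, and limma called 0, against 0.0114% of all tested probes. At an unadjusted p under 0.05 were 4 of the 19, where 1.85% of all 23473 tested genes were, each by its brightest tested probe, and that share also applies to the lists below. The largest differences were those of Lbp, which encodes lipopolysaccharide-binding protein, Serpina3g, a serine protease inhibitor gene, Orm2 and Hpx, which encodes the haem carrier hemopexin. Lbp read 1.69 and 1.93 with the Hdac6 vector, against 0.81 and 1.12 with the empty vector (1.80-fold, limma adjusted p = 1.00). Serpina3g read 2.56 and 2.70 with the Hdac6 vector and 1.67 and 1.93 with the empty vector (1.78-fold, limma adjusted p = 1.00). In neither did the groups overlap. Hpx read -2.16 and -2.25 with the Hdac6 vector and -3.74 and -2.15 with the empty vector, so its groups overlap. No probe was well above background for 9 of the list, among them the fibrinogen gene Fga, the macroglobulin gene A2m, the hepcidin gene Hamp, the lectin genes Mbl1 and Mbl2 and Serpina3k. Of the 10 negative acute-phase genes, whose products fall in the liver's response, 6 were tested, 3 read higher and 3 lower, and limma called 0 (0 at an unadjusted p under 0.05).

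Of 28 other complement genes 19 were tested, 12 read higher and 7 lower, with a median log2 difference of 0.17 and 0 called by limma (2 at an unadjusted p under 0.05). C1qb, a chain of the recognition molecule C1q, read -3.59 and -3.43 with the Hdac6 vector and -4.62 and -4.12 with the empty vector (1.81-fold, limma adjusted p = 1.00). The gene of the classical pathway protease C1s, C1s1, read 3.65 and 3.40 with the Hdac6 vector and 2.70 and 2.98 with the empty vector (1.61-fold, limma adjusted p = 1.00). C1rb, a copy of the C1r protease gene, and C9, a component of the membrane attack complex, were at 1.54-fold and 1.69-fold and were not called either. C9 read -2.27 and -2.29 with the Hdac6 vector and -3.64 and -2.43 with the empty vector. Its empty vector arrays lay 1.22 apart, more than the gap of 0.14 between the groups.

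Upstream of these genes, the cytokines were not called as changed: 10 of 14 were tested, 5 read higher and 5 lower, and limma called 0 (0 at an unadjusted p under 0.05). The interleukin 6 gene Il6 read -1.23 and -1.35 with the Hdac6 vector and -1.72 and -0.53 with the empty vector, both Hdac6 vector values lying between the empty vector values. Its log2 difference was -0.16 (limma adjusted p = 1.00). The largest differences among cytokines were 0.49 for Il22, -0.45 for Cntf, 0.31 for Ctf1 and -0.17 for Il11. Osm, Il1a, Il1b and Il17a had no probe well above background.

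Of the receptors and adaptors all 19 were tested, 6 read higher and 13 lower, and limma called 0 (2 at an unadjusted p under 0.05). Il6ra, the ligand-binding chain of the interleukin 6 receptor, read 0.70 and 0.34 with the Hdac6 vector and -0.86 and 0.13 with the empty vector (1.85-fold, limma adjusted p = 1.00). It passed without empty vector 2, at a log2 difference of 1.38 and a limma adjusted p of 0.0215, in a fit where empty vector 1 stands alone for its group. Il1rl1, the receptor gene for interleukin 33, read -5.14 and -4.29 with the Hdac6 vector and -3.15 and -4.07 with the empty vector (0.463-fold, limma adjusted p = 1.00). The interleukin 22 receptor gene Il22ra1 was at 0.528-fold with overlapping groups, and the Toll-like receptor gene Tlr2 at 1.29-fold, likewise overlapping.

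Of 30 transcription factors and feedback regulators 28 were tested, 13 read higher and 15 lower, with a median log2 difference of -0.03 and 0 called by limma (0 at an unadjusted p under 0.05). Cebpd, a C/EBP gene that cytokines induce, read 4.48 and 4.84 with the Hdac6 vector and 4.51 and 3.99 with the empty vector, so its groups overlap. Stat3, whose product carries the interleukin 6 signal, read 3.39 and 3.52 with the Hdac6 vector and 3.21 and 3.11 with the empty vector (1.22-fold, limma adjusted p = 1.00). Rel, an NF-kB subunit gene, read 1.00 and 1.27 with the Hdac6 vector and 1.56 and 1.44 with the empty vector (0.779-fold), and Yy1 was at 0.824-fold. None of these was called by limma. Of 22 receptors and partners of the acute-phase products 16 were tested, 7 read higher and 9 lower. Limma called 0 of them (0 at an unadjusted p under 0.05). The largest difference was that of Tlr2, named above, at 1.29-fold. Next came the ferroportin gene Slc40a1 at 0.775-fold, the lipocalin receptor gene Lrp2 at 0.782-fold and the purinergic receptor gene P2rx7 at 0.814-fold. The C3a receptor gene C3ar1 and the haptoglobin receptor gene Cd163 had no probe well above background.

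**Figure D3:**
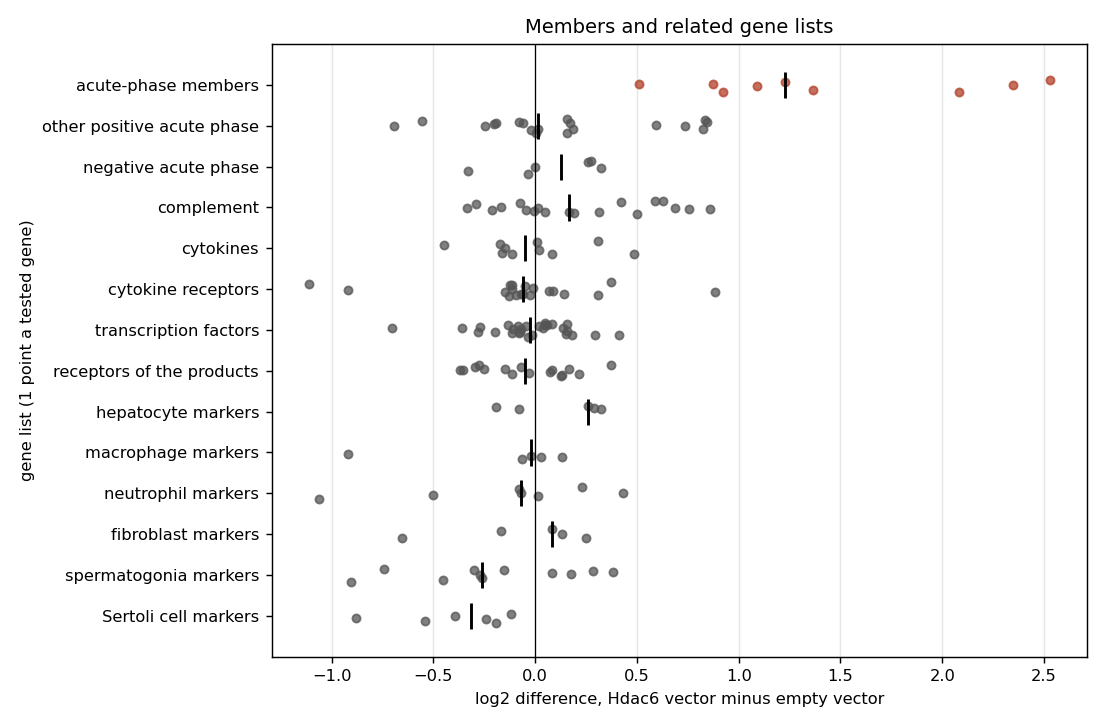
Log2 difference, Hdac6 vector minus empty vector, of each tested gene by its brightest tested probe, for the 9 measured acute-phase members (red) and the 7 related lists and 6 marker lists (grey); black bars are medians and vertical jitter has no meaning. The members run from 0.51 to 2.53, and the medians of the other lists lie between -0.32 and 0.26.

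Markers of cells that could carry these transcripts were read from the same arrays. Of 10 hepatocyte markers 5 were tested, Apob, Ttr, Apoa1, Hnf4a and Fga had no probe well above background, and the log2 of the summed levels was -2.03 and -1.56 with the Hdac6 vector and -2.06 and -1.72 with the empty vector. Of 8 macrophage markers 5 were tested, 2 read higher and 3 lower, with summed levels of 4.29 and 4.24 with the Hdac6 vector and 5.08 and 4.46 with the empty vector. The 5 tested macrophage markers were well above background on all 4 arrays, whereas Adgre1 and Fcgr1 had no such probe. Cd68 was at 0.529-fold (limma adjusted p = 1.00). Of 8 neutrophil markers 7 were tested, 3 read higher and 4 lower. Their summed levels were 5.87 and 5.65 with the Hdac6 vector and 5.84 and 5.84 with the empty vector. S100a9 was at 0.479-fold (limma adjusted p = 1.00). It was dim, at -4.52 and -4.15 with the Hdac6 vector and -2.65 and -3.90 with the empty vector, whose arrays lay 1.24 apart. The log2 differences of the others were -0.50 for S100a8, -0.08 for Csf3r, -0.07 for Elane, 0.01 for Mpo, 0.23 for Camp and 0.43 for Ly6g. Of 7 fibroblast markers 5 were tested, 3 read higher and 2 lower, while Lum and Thy1 had no probe well above background. The fibroblast markers had summed levels of 8.53 and 8.48 with the Hdac6 vector and 8.14 and 8.57 with the empty vector. Their log2 differences were 0.08 for Col1a1 (1.06-fold), 0.13 for Col1a2, 0.25 for Dcn, -0.17 for Pdgfra and -0.65 for Postn. The groups lay apart for Pdgfra and Postn and overlapped for the others. Postn was dim, and its signal passed the background flag on the empty vector arrays only. The hepatocyte, neutrophil and fibroblast sums overlapped between the groups, and the macrophage sum was lower on both Hdac6 vector arrays. Each sum adds levels of different probes, so its brightest probes weigh most. The neutrophil sum lay close to Csf3r alone, at 5.83 and 5.58 with the Hdac6 vector and 5.78 and 5.79 with the empty vector. Among the macrophage markers the log2 difference was -0.92 for Cd68. It was -0.06 for Ptprc, -0.02 for Cd14, 0.03 for Lyz2 and 0.13 for Csf1r. The part of these cells in the acute-phase differences was not tested. Of 15 spermatogonia markers 11 were tested, 4 read higher and 7 lower (median log2 difference -0.26), with summed levels of 4.76 and 5.19 with the Hdac6 vector and 5.73 and 4.91 with the empty vector. Etv5 read 2.52 and 3.23 with the Hdac6 vector and 4.06 and 3.18 with the empty vector, so its groups overlap, while Kit and Dazl had no probe well above background. Of 8 Sertoli cell markers 6 were tested, 0 read higher and 6 lower (median log2 difference -0.32), and Amh and Cldn11 had no probe well above background. Rhox5 read -3.34 and -2.43 with the Hdac6 vector and -1.27 and -2.74 with the empty vector, so its groups overlap. Limma called 0 genes of any marker list (at an unadjusted p under 0.05, 1 macrophage and 1 neutrophil marker and 0 of the others).

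The probes most like Saa1 and Saa3 over the 4 arrays were ranked by the root mean square distance of their centred levels from the mean profile of those genes, over 28548 tested probes with a reference symbol. The nearest 8 read Cxcl1 (distance 0.476), Tnks2 (0.508), Fxyd3 (0.522), Cxcl5 (0.526), Fmo2 (0.542), Farsa (0.558), Gm17746 (0.563) and Tex26 (0.567), while the median distance was 1.24. Hp, at 0.315, was nearer than any of these, and the other members lay between 0.621 for Lcn2 and 0.983 for C3. Cxcl1, a neutrophil-attracting chemokine gene, read 3.96 and 4.42 with the Hdac6 vector, against 2.24 and 3.01 with the empty vector. Farsa, an aminoacyl-tRNA synthetase subunit gene, read -1.54 and -2.01 with the Hdac6 vector, against -3.57 and -4.70 with the empty vector. Fmo2 and Tex26 were not well above background on either empty vector array, so their signal was at least 1.94-fold and at least 3.06-fold higher with the Hdac6 vector. With 4 arrays a short distance says little more than that the groups differed by a like amount.

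**Figure D4:**
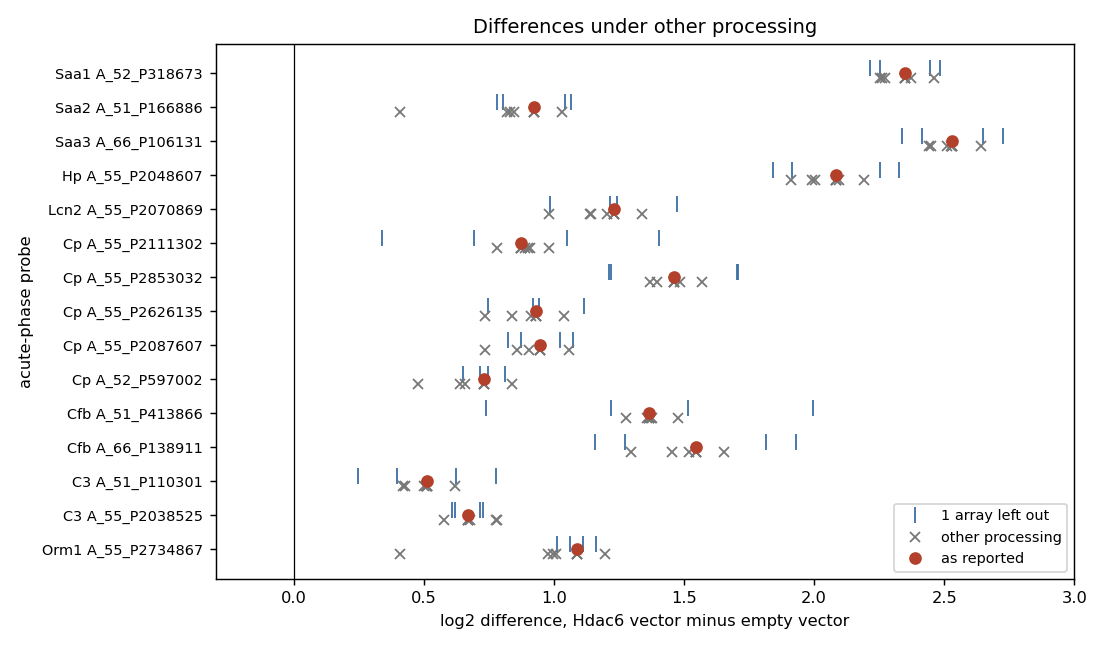
Log2 difference, Hdac6 vector minus empty vector, of each tested acute-phase probe as reported (circles), with 1 array left out (bars) and under other processing (crosses). All values lie above 0, from 0.25 for the brighter C3 probe to 2.72 for Saa3.

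Under the other settings tried, 12 for a gene's brightest probe, all 15 tested acute-phase probes kept a positive difference, as the plot of differences under other processing shows. In many of these settings the sign could not turn. A block for replicates or the lack of a filter leaves each difference as it is. Leaving out an array cannot turn the sign where the groups do not overlap, as in all 15. Leaving out an array moved Saa3 between 2.34 and 2.72, Saa1 between 2.22 and 2.48 and Hp between 1.84 and 2.32 on the log2 scale.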

How the data were processed

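The authors deposited 4 one-colour Agilent scanner files of spot intensity and a table of log2 values. Per the file headers, Feature Extraction 11.5.1.1 (protocol GE1_1105_Oct12) made background-subtracted, detrended intensity values, not normalized between arrays, with positions in mm9. All 4 arrays were scanned on 1 day. The sources used here do not give how the authors made the deposited log2 table.

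Spots of 300 probes printed 10 times were averaged on the log2 scale, and each array's 75th percentile over the 56605 non-control probes was subtracted. A probe was tested if well above background on both arrays of at least 1 group (35215 probes). Python 3.11.15 and limma 3.58.1 in R 4.3.3 were used (lmFit, eBayes with a trend, two-sided, Benjamini-Hochberg over all tested probes), and the functions were tested on simulated data. Names came from RefSeq GRCm38.p6 for 43738 probes, and 12867 kept the name in the files. A gene with several probes was counted by its brightest tested probe.

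The genes and lists were chosen with earlier results of these data known. Named from each list are called genes and up to 4 with the largest difference among those well above background on all 4 arrays, plus up to 6 undetected genes, all tested neighbours of the Saa genes and the 8 most like probes. Il6 falls outside this rule and was picked once its values had been seen.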

Additional observations from a re-analysis of the deposited data

How the results depend on the processing

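Alternatives to the main processing were normexp background correction (offset 50), quantile normalization, median scaling, spike-in scaling, no filter on dim probes, the authors' deposited table, the replicate number as a block and each array left out. The number of probes limma called over the whole array was 4; it was 32 with normexp, 2 with quantile normalization, 0 with median scaling (727 at an unadjusted p under 0.05), 19 in the authors' deposited table and 22 with the replicate block, and between 0 and 310 with an array left out (0 without Hdac6 vector 2, 310 without empty vector 2). The cause of these shifts was not tested. The median log2 difference of the 9 measured acute-phase genes was 0.98 with normexp in place of 1.23, and between 1.01 and 1.47 with an array left out. Related list genes called were 0 in each setting except 1, Il6ra, without empty vector 2, so with an array left out they ran between 0 and 1; neighbouring probes called were 0 in each. Same-numbered arrays deviated in opposite directions (correlation -0.35). With 2 arrays a group the deviations within it are equal and opposite, so this value cannot settle whether the numbers pair the samples. A crossed block, chosen after seeing the data, called 18 probes. Median scaling put the median of all tested probes at -0.07 and spike-in scaling at 0.13, against 0.02. Low signal limits Saa2, Saa4, Orm1, the dimmest Cp probe and the dimmer Lcn2 probe. It also limits other named genes that are no members, among them Orm2, C1qb, Il22, Il1rl1 and S100a9.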
